A study of Mus musculus with 2 samples.

Results

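The E2F transcription factor genes and the genes of the retinoblastoma pocket proteins were followed through a map of trimethylated lysine 4 of histone H3 (H3K4me3) in mouse neural progenitor cells. The members were E2f1 to E2f8, Rb1 and Rbl1, 10 of 21887 protein-coding genes in the RefSeq table, and their peaks were those overlapping the gene or the 5 kb on either side of it. This gave 12 of the 19265 deposited peaks. Of the 2 samples, 1 was chromatin pulled down with an H3K4me3 antibody, marked "con", and the other was input chromatin. Both came from adult neural progenitor cells kept in N2 medium containing EGF and bFGF, with no treatment listed. The labels do not give the strain, the genotype, the age beyond adult or the meaning of "con", and the header of the peak list names the H3K4me3 library after EGF. With 1 library of each kind there was no replicate error and no comparison between conditions, and fewer cells with the mark and less of the mark per cell cannot be told apart at a weaker peak.

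E2F proteins bind the promoters of genes needed for DNA synthesis and cell division. In resting cells pocket proteins hold them in repressing complexes, and phosphorylation of the pocket proteins by cyclin-dependent kinases in late G1 releases them. In the brain this switch is known for governing when neural progenitors leave or re-enter the cell cycle. H3K4me3 marks the start regions of active and poised genes, so a peak at a member says that its promoter carries the mark, and not how much RNA or protein is made.

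The filtered libraries had 18156769 tags for H3K4me3 and 17831241 for input, and the 12 peaks held 0.0326% of the H3K4me3 tags. The labelled cell type was checked against fixed marker genes. All 10 neural progenitor markers had a peak in the same kind of window, and 8 of them, Sox2 and Nes included, had one within 1 kb of a gene end, with 495 to 2065 tags. Of the neuronal markers 2 of 6 had a peak at an end, with 84 and 219 tags, of the microglial markers 1 of 6 (33 tags), of the endothelial markers 2 of 5 (93 and 462 tags), and of the astrocyte markers 0 of 4. Of the oligodendrocyte genes Mbp had a peak of 35 tags at an end and Mog a peak elsewhere in its window. Anywhere in the window, peaks lay at 2 of 6 neuronal, 2 of 6 microglial, 3 of 5 endothelial and 0 of 4 astrocyte markers.

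All 10 members were marked. A peak lay in the window of 10 of 10 members, where 64.1% of all protein-coding genes had one (14029 of 21887). The family was chosen through peaks in these same windows, so the count follows from that choice. This count and the next ones, set beside shares of coding genes, are a description only. In each member a peak also covered an end of the gene. That is stricter than a peak within 1 kb of either end, which 56.3% of coding genes had. In 8 of 10 members at least 1 peak lay in the window of no other coding gene, as it did in 39.6% of coding genes. For 7 members the RefSeq promoter table gives a start site and strand, and all 7 had a peak within 1 kb of a start, against 58.0% of coding genes with an entry. E2f4, E2f5 and Rb1 have no entry there and were described by the gene end under the peak. The peaks at these ends ranged from 1989 to 4646 bp, from 324 to 967 tags and from 27.5 to 57.1 in the authors' fold enrichment over input. Their medians were 2604 bp, 429 tags and 40.8, beside medians of 2240 bp, 338 tags and 39.1 for the 12328 coding genes that had a peak at either end. The members' widths and tag counts were thus above the median of marked genes in 9 of 10, and their fold enrichments in 6 of 10.

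**Figure D1:**
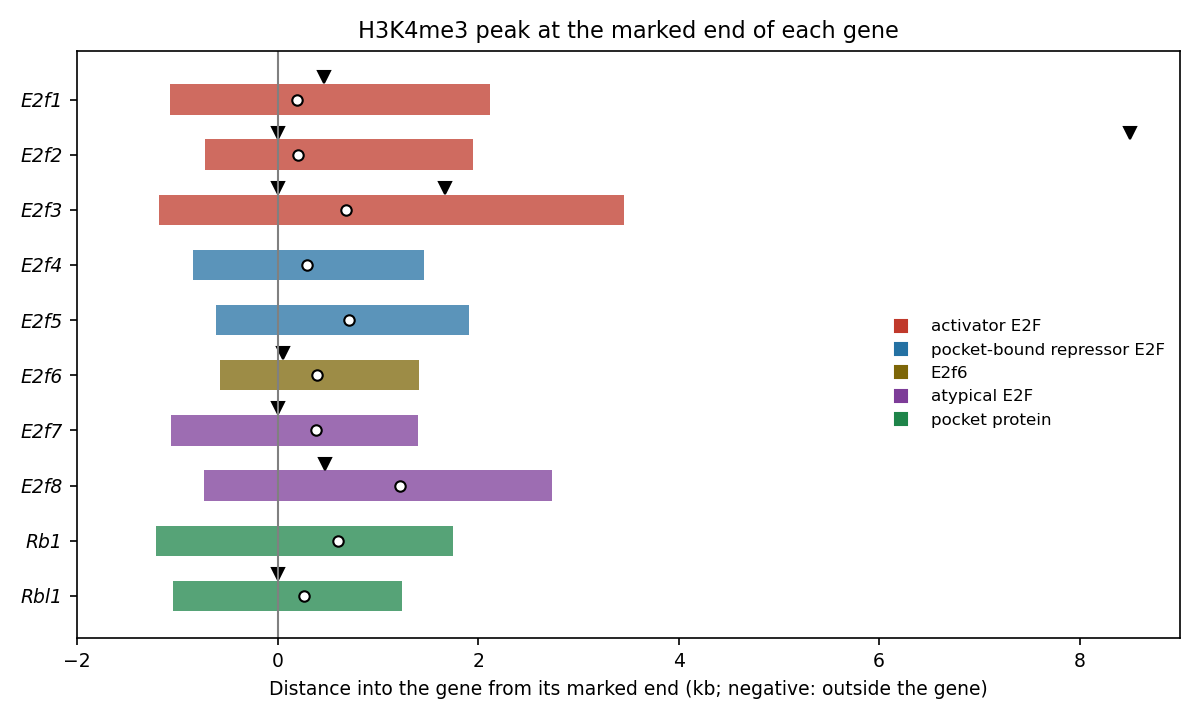
Extent of the H3K4me3 peak at the marked end of each member, in kb from the outer annotated end of the gene (positive values lie inside the gene). Bars are peaks, white circles summits and black triangles start sites of the promoter table, which holds none for E2f4, E2f5 and Rb1; every summit lies inside the gene, the bar of E2f3 covers both of its start sites and the inner start of E2f2 lies outside its bar.

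The layout of the peaks was first measured from the outer annotated end of each gene, which was not done for all coding genes. In all 10 members the peak reached further into the gene than out of it, by 1244 to 3459 bp inwards and 579 to 1212 bp outwards. The summit lay inside the gene in all 10, from 188 bp (E2f1) to 1222 bp (E2f8) from the outer end, with a median of 388 bp. Measured from the start sites of the promoter table, the summit lay downstream in 6 of the 8 covered starts of members, and upstream at E2f1 (278 bp) and at the inner start of E2f3 (989 bp). Over the 11753 covered start sites of coding genes it lay downstream in 78.1%, with a median of 199 bp, and the peak reached 829 bp upstream and 1302 bp downstream as medians. A peak reaching further into the gene was thus not particular to the members. From its table start the E2f1 peak reached 1544 bp upstream and 1649 bp downstream.

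The activator genes E2f1, E2f2 and E2f3 encode the E2Fs that switch on S-phase genes once released from pRB. Among them E2f3 had the largest peak, while E2f1 and E2f2 had close tag counts. E2f1 had 412 tags (95% Poisson interval 373 to 454) in a peak of 3194 bp with a fold enrichment of 39.8 (mm10 chromosome 2, 154567777 to 154570970). This gave 129 tags per kb of peak (117 to 142), the lowest density of the 10 members, at the 30.5 percentile of marked coding genes. E2f2 had 424 tags (385 to 466) over 2680 bp with a fold enrichment of 30.8 (chromosome 4, 136171546 to 136174225). E2f3 had 967 tags (907 to 1030) over 4646 bp with a fold enrichment of 49.2 (chromosome 13, 29982605 to 29987250). Its interval lay above that of every other peak in the family. E2f3 stood at the 98.1 percentile of marked coding genes in tags and at the 94.9 in region width, whereas E2f1 and E2f2 stood at the 63.6 and 65.9 in tags.

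E2f2 and E2f3 each have a pair of start sites in the promoter table, and the pairs differed in their marking. At E2f3 the start sites lie 1672 bp apart and a single peak covered both, with its summit 683 bp inside the outer start and 989 bp from the inner one. E2f3 is known for a long and a short protein made from separate promoters. At E2f2 the start sites lie 8508 bp apart, and only the outer one was covered. The inner start lay 6557 bp from the nearest peak. Of 2074 coding genes with exactly 2 entries, both starts were covered in 50.7% and 1 of them in 23.7%. The 250 bases before each of these 4 starts are printed because they set 3 marked starts beside an unmarked one in the same family. They are from RefSeq (GRCm38.p6), 5′ to 3′ on the gene's strand, and capitals mark words that were searched for on both strands, namely the E2F words (TTTCCCGC, TTTCGCGC, TTTGCCGC and TTTGGCGC), the CHR word TTTGAA and the CCAAT box. No printed capitals of these motifs overlap one another.
E2f2 outer start, chr4:136172024-136172273, + strand, marked: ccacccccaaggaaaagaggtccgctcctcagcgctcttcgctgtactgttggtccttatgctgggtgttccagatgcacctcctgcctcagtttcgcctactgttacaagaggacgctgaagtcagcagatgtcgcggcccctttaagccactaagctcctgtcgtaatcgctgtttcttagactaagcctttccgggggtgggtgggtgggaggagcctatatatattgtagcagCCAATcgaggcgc
E2f2 inner start, chr4:136180532-136180781, + strand, not marked: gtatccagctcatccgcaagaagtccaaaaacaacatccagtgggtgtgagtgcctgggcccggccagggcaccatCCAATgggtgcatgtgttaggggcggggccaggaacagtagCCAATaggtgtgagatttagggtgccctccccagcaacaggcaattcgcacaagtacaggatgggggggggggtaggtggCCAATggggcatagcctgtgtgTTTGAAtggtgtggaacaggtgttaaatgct
E2f3 outer start, chr13:29986064-29986313, - strand, marked: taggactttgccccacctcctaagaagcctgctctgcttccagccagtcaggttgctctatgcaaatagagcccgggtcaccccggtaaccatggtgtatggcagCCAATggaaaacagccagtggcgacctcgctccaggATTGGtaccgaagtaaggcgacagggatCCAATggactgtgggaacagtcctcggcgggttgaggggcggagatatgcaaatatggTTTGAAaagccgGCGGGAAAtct
E2f3 inner start, chr13:29984392-29984641, - strand, marked: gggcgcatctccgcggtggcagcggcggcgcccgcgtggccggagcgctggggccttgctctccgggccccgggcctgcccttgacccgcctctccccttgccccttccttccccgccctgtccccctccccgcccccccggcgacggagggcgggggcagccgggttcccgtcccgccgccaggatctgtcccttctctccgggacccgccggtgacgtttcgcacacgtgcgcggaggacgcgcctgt

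The outer start of E2f3 held the word TTTCCCGC, on the opposite strand, 11 bases before the start, after a CHR word at 23 bases before it. At the outer start of E2f2 an E2F word lay after the start, in the site ttggcggcatatagTTTGGCGC (chr4:136172299-136172320, + strand). Neither inner start held an E2F word. In the 300-base window of the table, which adds the 50 bases after the start, the unmarked inner start of E2f2 held 7 CpG pairs, against 18 at its outer start, 16 at the outer and 37 at the inner start of E2f3. The median was 22 over covered and 3 over uncovered starts of coding genes.

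The genes of the pocket-bound repressors, E2f4 and E2f5, had like tag counts and widths but differed in fold enrichment. E2F4 and E2F5 recruit p107 and p130 to promoters in resting cells. E2f4 had 389 tags (351 to 430) over 2299 bp with a fold enrichment of 45.4 (chromosome 8, 105296820 to 105299118), and E2f5 had 408 tags (369 to 450) over 2527 bp with 33.99 (chromosome 3, 14577989 to 14580515). The Poisson intervals overlap, and the difference in tag counts was not tested. Each has a close neighbour. The E2f4 peak ran 147 bp over the end of Exoc3l, which lies 696 bp away, so that the mark cannot be given to E2f4 alone, although its summit lay 296 bp inside E2f4. E2f5 overlaps Rbis by 21 bp at its other end, and the further peak in the window of E2f5 lay beside the gene, 3851 bp beyond it, over the far end of Rbis. That peak held 274 tags (243 to 308) over 2047 bp with a fold enrichment of 46.3 (chromosome 3, 14610160 to 14612206). It is the only one of the 12 peaks that does not touch its member, and the nearest peak beyond any member's window was the one at 7267 bp from E2f4, with 250 tags and a fold enrichment of 39.8.

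E2f6 encodes a repressor that lacks the pocket-binding region and acts with Polycomb proteins. It had the smallest peak of the family, with 324 tags (290 to 361) over 1989 bp and a fold enrichment of 36.2 (chromosome 12, 16810330 to 16812318). E2f6 was the only member below the median of marked coding genes in tags and in width, at the 47.0 and 37.6 percentiles. Its interval overlaps that of E2f4, the next in order.

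The atypical members E2f7 and E2f8, which carry a duplicated DNA-binding domain, need no DP partner and repress E2F targets late in S phase, lay at opposite extremes of the family in fold enrichment. E2f8 had 622 tags (574 to 673) over 3465 bp with a fold enrichment of 57.1 (chromosome 7, 48879340 to 48882804), the highest in the family and at the 97.0 percentile of marked coding genes. E2f7 had 532 tags (488 to 579) over 2462 bp with a fold enrichment of 27.5 (chromosome 10, 110744378 to 110746839), the lowest in the family and at the 21.2 percentile. Per kb of peak the order turned around. E2f7 had 216 tags per kb (198 to 235) and E2f8 had 179.5 (166 to 194), and E2f7 stood at the 97.3 percentile of marked coding genes. Fold enrichment is taken over the input, and the input value used at each peak is not in the list. The share of the input in this difference was not tested. The peak at E2f8 also overlapped the long non-coding RNA genes Gm2788 and LOC115486422, so that the mark cannot be given to E2f8 alone. The bases before the start of E2f7 are printed because they hold an E2F word in the family's densest peak.
E2f7 start, chr10:110745189-110745438, + strand: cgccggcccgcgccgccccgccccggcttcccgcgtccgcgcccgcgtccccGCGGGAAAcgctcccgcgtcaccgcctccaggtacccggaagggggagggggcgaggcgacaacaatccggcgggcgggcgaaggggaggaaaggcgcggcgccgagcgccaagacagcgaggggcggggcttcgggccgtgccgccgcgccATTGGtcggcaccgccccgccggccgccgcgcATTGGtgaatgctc

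The capitals are TTTCCCGC on the opposite strand, 198 bases before the start, and a pair of CCAAT boxes at 46 and 14 bases before it. The window of E2f7 also held 5 GC boxes (GGGCGG, either strand, of which 2 overlap each other) and 49 CpG pairs.

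The pocket protein genes Rb1 and Rbl1 encode pRB, which mainly holds the activators, and p107, which mainly holds E2F4. At the upper end of Rb1 a peak of 2967 bp held 544 tags (499 to 592) with a fold enrichment of 41.8 (chromosome 14, 73324197 to 73327163). Rb1 had a further peak deep in the gene, 85198 bp from that end, with 595 tags (548 to 645) over 3544 bp and a fold enrichment of 29.9 (73237210 to 73240753). The inner peak covered the whole of Lpar6, a receptor gene of 2468 bp that lies within Rb1, and ran 681 and 395 bp past its ends. The tag intervals of both peaks overlap, and the difference in their counts was not tested. Rbl1 had 433 tags (393 to 476) over 2289 bp with a fold enrichment of 46.2 (chromosome 2, 157203290 to 157205578). The peak lay 2970 bp from Mroh8 and 2666 bp from the small nuclear RNA gene LOC115489594, inside the 5 kb window of each. The third pocket protein gene, Rbl2, is not a member and was named after its values were seen; it had 349 tags (313 to 388) over 2355 bp with a fold enrichment of 49.2. The sequence before the start of Rbl1 is printed because an E2F word lies close to the start, under the peak.
Rbl1 start, chr2:157204535-157204784, - strand: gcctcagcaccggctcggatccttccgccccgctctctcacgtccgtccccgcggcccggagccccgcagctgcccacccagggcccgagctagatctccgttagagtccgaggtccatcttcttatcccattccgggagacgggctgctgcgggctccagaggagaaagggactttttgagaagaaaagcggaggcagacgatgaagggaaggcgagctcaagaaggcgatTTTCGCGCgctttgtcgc

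The word TTTCGCGC began 18 bases before the start of Rbl1.

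**Figure D2:**
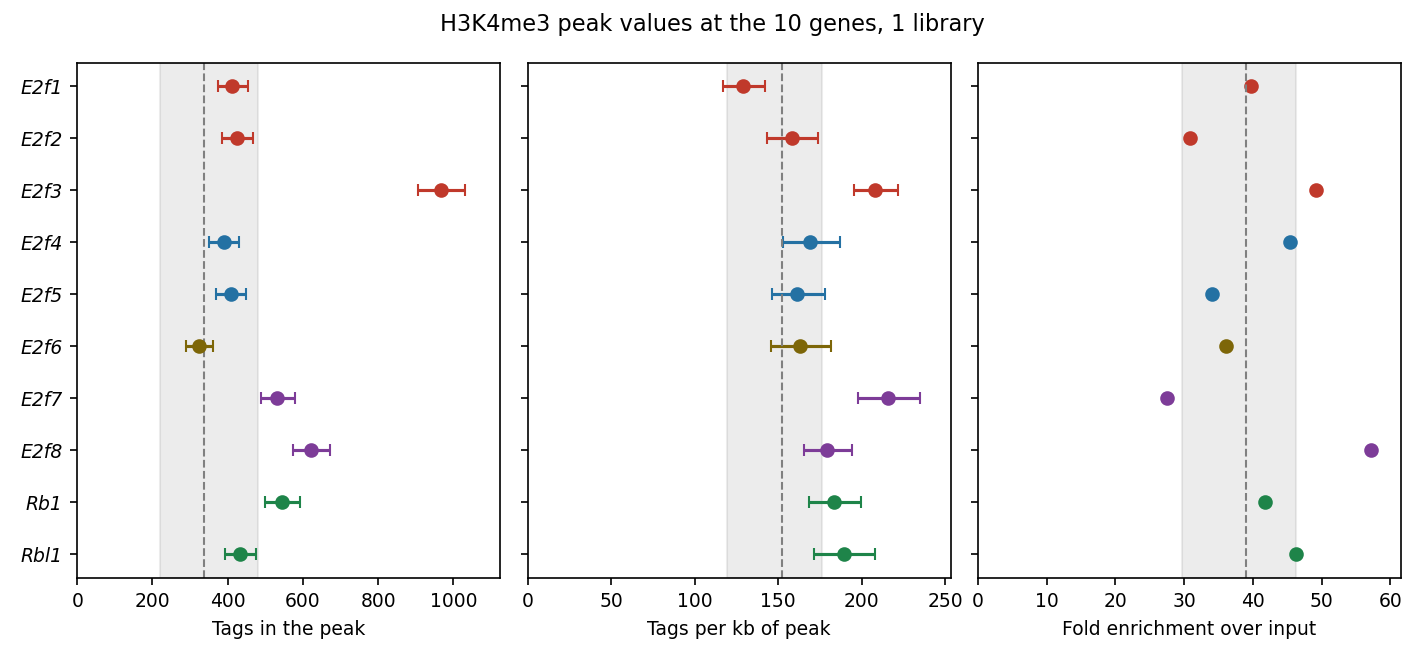
Tags in the peak, tags per kb of peak and fold enrichment over input for the peak at the marked end of each member in 1 library, with exact 95% Poisson intervals on tags and density (counting error only). The dashed line and grey band are the median and quartiles of the 12328 end-marked coding genes; E2f3 is alone at 967 tags, and E2f7 has the highest density but the lowest fold enrichment.

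In order of tags the members ran E2f3, E2f8, Rb1, E2f7, Rbl1, E2f2, E2f1, E2f5, E2f4 and E2f6. The Poisson intervals of neighbours in this order lay apart at 2 steps, from E2f3 (967) to E2f8 (622) and from E2f7 (532) to Rbl1 (433). Overlap at the other steps does not show that the counts agree. In the order of density E2f1 (129 per kb) lay below E2f2 (158 per kb, 144 to 174), the only step without overlap. The authors' score could not order the members, since 6 of their 10 peaks, and 20.4% of all peaks, carry the same value of 3100, a -log10 p of 310.

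**Figure D3:**
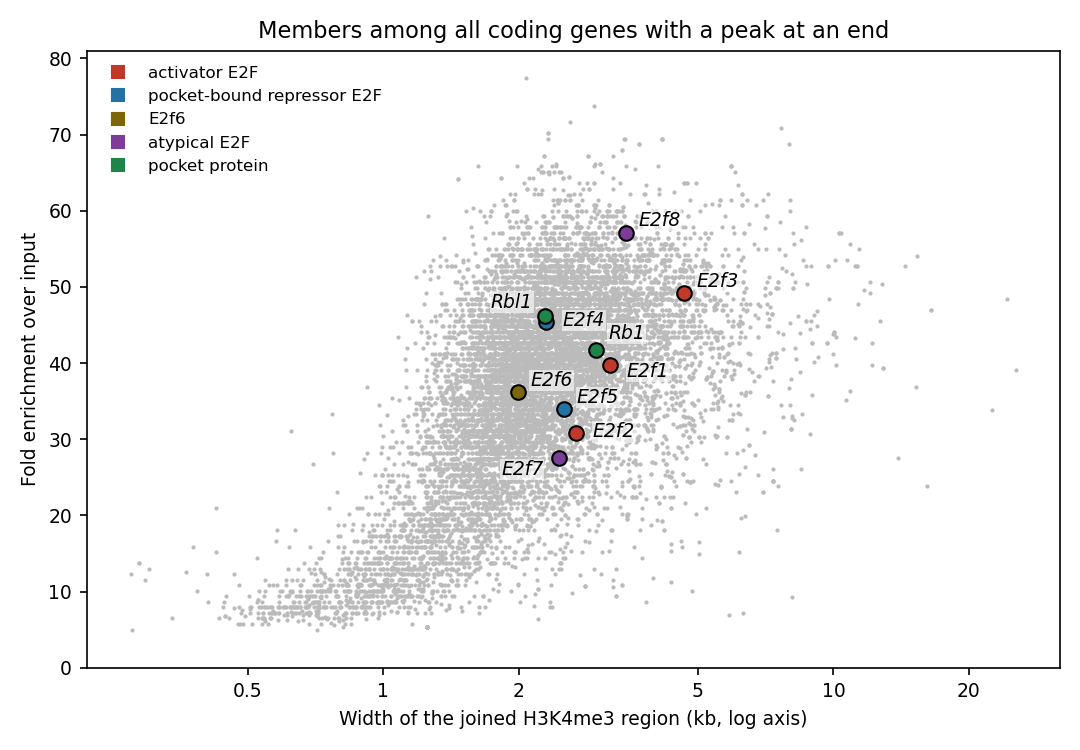
Width of the joined H3K4me3 region (kb, log axis) against fold enrichment for the strongest peak at an end of each of 12328 coding genes (grey) and the 10 members (coloured by role). The members lie within the main cloud, with E2f3 the widest at 4646 bp and E2f8 the highest at a fold enrichment of 57.1.

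Exact E2F words were found in the promoter windows of 4 of the 7 members with an entry, E2f2, E2f3, E2f7 and Rbl1, in 4 of their 9 windows. Among the 21263 windows of coding genes 2.85% held such a word, as did 4.31% of the 11753 windows whose start was under a peak. E2f1, E2f6 and E2f8 held none in the window of the table. For E2f1 and E2f8 that window starts from a site 466 and 477 bp inside the annotated gene, so it does not cover the bases before the outer end. GC boxes were in 7 of the 9 windows, against 46.2% of all windows and 69.3% of those under a peak. CCAAT boxes were in 5, against 38.2% of both, and CHR words in 3, against 15.99% of all, 10.5% of those under a peak and 22.7% of those not under one. The 9 windows include the unmarked inner start of E2f2, which held all 3 of these motifs. A match describes letters in the sequence and does not show that a factor binds.

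Every listed gene that works with the family had a called peak in its window. The lists were chosen with earlier results of these data known, so their counts are a description only. All 10 genes of E2F partners and the MuvB core with its partners had a peak in the window, as had all 15 genes of D and E cyclins, their kinases and CDK inhibitors, all 20 E2F target genes and all 10 genes of the E2F6 complex, against the same 64.1% of coding genes. With only peaks in the window of no other coding gene the counts were 6 of 10, 11 of 15, 8 of 20 and 8 of 10, against 39.6% of coding genes, so that the targets stood at about the background share. Median tags at the marked ends were 417, 526, 413 and 439 in these lists. Lin54, which encodes a MuvB subunit that binds DNA, lay under 3957 bp with 541 tags, and Foxm1, a mitotic activator, under 3736 bp with 545 tags in a peak that is shared with Rhno1. Among the regulators the strongest peaks at the CDK inhibitor genes Cdkn1b and Cdkn2c spanned 12686 and 7628 bp. Ccnd1 had a single peak of 11717 bp. With joining, the widest regions were at Cdkn1b (14391 bp) and Cdkn2c (12074 bp), each from 3 peaks. The widest among the targets were at Mcm7, a subunit of the replicative helicase (3457 bp, 730 tags, shared with Ap4m1), and at Ccna2, which encodes cyclin A2 (3291 bp, 562 tags, shared with Exosc9 and Bbs7). In the E2F6 complex Cbx3, a heterochromatin protein gene, lay under 7472 bp with 1424 tags in a peak shared with Hnrnpa2b1, and Ring1, a Polycomb ubiquitin ligase gene, under a region of 4694 bp joined from 2 peaks, of which the one at Ring1 (2489 bp) is shared with H2-Ke6 and Slc39a7.

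The regulators covered a wider range of values than the family. Peaks at ends of the 15 cyclin, kinase and inhibitor genes ran from fold enrichments of 7.23 to 53.6. Named after their values were seen, Cdkn1c had a single peak of 21 tags (fold enrichment 7.96), and the strongest peak at an end held 27 tags at Cdkn1a (7.23, with a further peak in its window at a -log10 p of 310) and 62 at Cdkn2b (14.5), while Ccnd1, which encodes cyclin D1, had 2145 tags. No member of the family had fewer than 324.

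**Figure D4:**
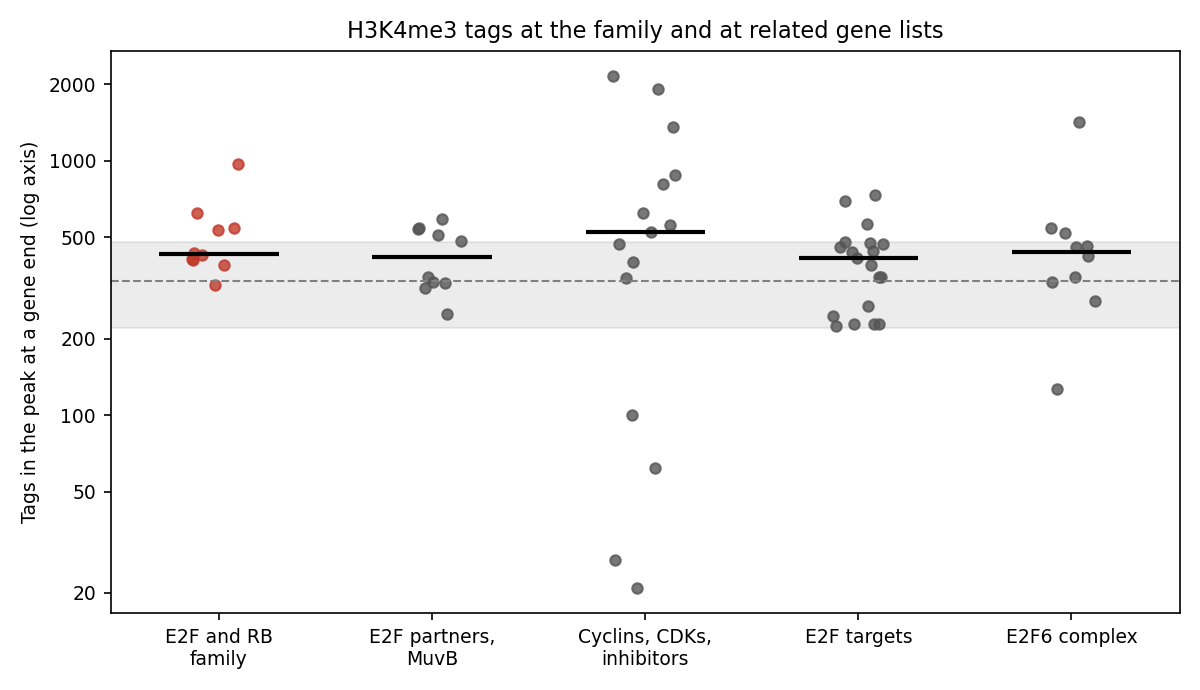
Tags in the strongest peak at a gene end (log axis) for the 10 members (red) and the members of 4 related lists (grey), with list medians as black bars. The dashed line and band are the median and quartiles of 12328 marked coding genes; the members run from 324 to 967 tags and the cyclin, kinase and inhibitor genes from 21 to 2145.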

How the data were processed

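ChIP-seq of H3K4me3 was set against input chromatin, with 1 library of each. The genome build was mm10, per the submitters' processing notes. The aligner was not given in the sources used here. MACS 1.4.2 is named by the header. Per the file headers the authors called peaks against the input at a p cutoff of 1e-05, with at most 1 tag per position, which limits counts in dense peaks; MACS2 2.1.0 is the version in the submitters' processing notes. The deposited values per peak are position, raw tag count, a score of 10 times the -log10 p-value, fold enrichment over input as a ratio, and percent false discovery rate, all as the authors gave them.

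Gene bounds and promoter sequences came from RefSeq tables of GRCm38.p6, the assembly of mm10, and all 10 members matched by symbol. A peak was counted from 1 bp of overlap, and peaks at most 1 kb apart were joined for widths. The peak described at a gene end, within 1 kb of it, is the one with the most tags. Percentiles are shares of coding genes with a lower value. Intervals are exact 95% Poisson intervals and cover counting error only, as amplified reads carried no molecular identifiers. No test was made. Members and lists were chosen with earlier results of these data known. The text names all members, genes sharing their peaks, and the 2 list genes under the widest regions. Python 3.11.15 with pandas 2.3.3 and scipy 1.17.1 was used. The overlap counting was checked against a direct count on a random sample of the real peaks and genes. Joining and the motif search were tested on made-up input. Windows, thresholds, summits, shared peaks and joining were varied. The full oligodendrocyte marker list is not reported here.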

Additional observations from a re-analysis of the deposited data

How the results depend on the processing

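With 1 library nothing could be left out, and the effect of depth on counts, calls and widths was not tested. A gene without a peak would be one without a called peak, the weakest of which held 13 tags. All 10 members kept a peak with windows of 1 kb, with no window, with the peak summit required in the window, and with a minimum of 10 for the -log10 p or for the fold enrichment. With only peaks in the window of no other coding gene, 8 of 10 did (not E2f4 and Rbl1), and the coding genes fell from 14029 to 8678, or 39.6%. The 7 members with an annotated start kept a peak there under each alternative. The lists were recounted with windows of 1 kb, with the summit required in the window and with a minimum -log10 p of 10, and of these only the p minimum changed a count, to 14 of 15 regulators. The fold minimum was not run on the lists, and their counts with unshared peaks stand beside the main ones. Joining moved no member's width, and leaving out the window lowered the highest fold enrichment of E2f5 from 46.3 to 33.99. No paired analysis was possible because the groups hold 1 library each.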

Other observations

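E2F words were also counted in the promoter windows of the related lists, as a description with no test. Among E2F target genes 11 of 18 windows held one, those of the origin genes Orc1, Cdc6 and Cdt1, of the helicase genes Mcm3, Mcm5, Mcm6 and Mcm7, and of Cdc25a, Cdk1, Ezh2 and Pola1. In the E2F partner and MuvB list 3 of 11 windows did, at Tfdp1 and Lin52, in the list of cyclins, kinases and inhibitors 2 of 15, at Cdk2 and Cdkn2a, and in the E2F6 complex list 1 of 9, at Cbx3. All 18 windows of the targets had a start under a peak. Over all coding genes 2.9% of windows held an E2F word, as did 4.3% of those under a peak. The targets were listed as known E2F targets, so their count is not independent of how the list was made.

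Among the targets Orc1, which encodes a subunit of the origin recognition complex, had no peak within 1 kb of a gene end. Its strongest peak, of 525 tags with a fold enrichment of 52.1, lay inside the gene, 2331 bp from the nearer end. That distance is from the outer annotated end of the gene, and the start site of Orc1 in the promoter table was under a peak.

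Beyond the 5 kb windows the nearest peak lay 7267 bp (E2f4) to 50366 bp (E2f3) from the gene. It lay within 10 kb at 4 members, and held from 27 tags (E2f1, fold enrichment 7.34) to 354 tags (Rb1, 36.6).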
